A study of Mus musculus with 24 samples.

Results

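The cytosolic sulfotransferases described here are Sult1a1, Sult1b1, Sult1d1, Sult1e1, Sult2a1, Sult2a2, Sult2a5, Sult3a1 and Sult3a2. They were chosen by gene symbol, 9 of 22429 genes in the deposited count table, and 21 genes in that table carry a Sult symbol. All 9 passed the filter on low counts that left 12211 genes for testing, but Sult2a1, Sult2a2, Sult2a5, Sult3a1 and Sult3a2 passed through libraries of restricted mice and would have failed in the fed libraries alone. A count of these 5 genes as higher under restriction is therefore partly set by the filter.

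Ribosome profiling, which sequences the stretches of mRNA that translating ribosomes protect from nuclease, was done on 24 livers of male F1 hybrid C57BL6J/FVBN mice, 4 in each of 6 groups. The compared groups were wild-type mice fed ad libitum at 16 weeks, wild-type mice on 30% dietary restriction at 16 weeks and wild-type mice fed ad libitum at 104 weeks. The mutant groups were Ercc1Δ/− mice fed ad libitum at 7 weeks, fed ad libitum at 16 weeks, or on 30% dietary restriction at 16 weeks. Ercc1Δ/− mice combine a truncated and a null allele of a DNA repair nuclease subunit in all their cells, so a change in the liver need not begin there. All mice were housed singly on AIN93G pellets, restriction began in week 7 at 10% and reached 30% in week 9, and on the day of collection no mouse had been given food. Wild types of 7 weeks were not analysed here. Footprints count ribosomes on mRNA, so they do not separate more mRNA from more ribosomes on each mRNA.

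Total counts ran from 13366558 to 27084259 per library. Ercc1 itself had 1 to 15 counts in the mutant libraries and 34 to 110 in the wild-type libraries. Hepatocyte markers were present in every library, with a summed level over 8 genes of 99200 to 254000 CPM (counts scaled to a common, effective library size). The labels number the livers without saying that they are separate litters or cages, so p-values measure the spread between these samples. In bulk liver, fewer cells of a type and less RNA per cell cannot be told apart. Unless another test is named, an adjusted p comes from edgeR's quasi-likelihood test with Benjamini-Hochberg adjustment over all 12211 genes, the threshold is 0.05, and a log2 change is given with its standard error.

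Sulfotransferases move a sulfonate group from the activated donor PAPS to hydroxyl or amino groups of hormones, bile acids and drugs, which makes these molecules more water soluble and often ends their action. The SULT1 enzymes act mainly on phenols, estrogens and thyroid hormones, the SULT2A enzymes on hydroxysteroids and bile acids, and SULT3A1 on amines. In mice the liver levels of several of these genes differ between the sexes, with Sult2a1, Sult2a2 and Sult3a1 known to be higher in females, and nuclear receptors for bile acids and foreign compounds control several of them.

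The members lie in 4 places of the genome (RefSeq, build GRCm38.p6). Sult1b1, Sult1d1 and Sult1e1 are neighbours within 78.3 kb, chr5:87513327-87591611. Sult3a2 and Sult3a1 share 113.1 kb, chr10:33766424-33879475. Sult2a5, Sult2a2 and Sult2a1 stand at the start of a cluster of 8 Sult2a genes over 869.1 kb, chr7:13623967-14493023, where they are followed by Sult2a4, Sult2a3, Sult2a6, Sult2a8 and Sult2a7. Sult1a1 lies apart, chr7:126672865-126690443.

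The RefSeq promoter table listed a start site for 7 of the 9 members, all but Sult2a1 and Sult2a2. The 250 bases before the start site are printed here for Sult1e1, which differed most between the restricted genotypes, for Sult3a1, which had the largest restriction response in wild types, and for Sult2a5, Sult2a3 and Sult2a8, genes of the same cluster that answered restriction in opposite directions. Capitals mark matches on either strand to any of 4 motifs. The motif AGGTCA is a core element of many nuclear receptor sites, the motif TTCNNNGAA is the core of STAT sites, the motif ATTGAT is part of the binding site of HNF6 and CUX2, and the motif TATAAA is the TATA box. These motifs were chosen after sequences and values had been seen.
Sult1e1: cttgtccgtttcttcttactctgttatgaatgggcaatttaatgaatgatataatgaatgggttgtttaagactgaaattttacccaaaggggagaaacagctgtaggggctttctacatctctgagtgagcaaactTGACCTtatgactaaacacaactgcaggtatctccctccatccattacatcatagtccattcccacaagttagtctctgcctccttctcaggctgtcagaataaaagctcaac
Sult2a5: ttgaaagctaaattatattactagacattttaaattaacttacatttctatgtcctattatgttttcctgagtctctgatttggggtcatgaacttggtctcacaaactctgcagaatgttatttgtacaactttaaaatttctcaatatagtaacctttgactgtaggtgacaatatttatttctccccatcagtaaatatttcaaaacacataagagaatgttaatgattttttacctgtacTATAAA
Sult2a3: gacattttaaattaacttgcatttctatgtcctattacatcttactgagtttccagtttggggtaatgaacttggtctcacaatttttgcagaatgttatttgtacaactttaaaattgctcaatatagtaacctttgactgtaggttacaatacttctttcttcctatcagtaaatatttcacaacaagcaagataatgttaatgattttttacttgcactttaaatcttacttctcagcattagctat
Sult2a8: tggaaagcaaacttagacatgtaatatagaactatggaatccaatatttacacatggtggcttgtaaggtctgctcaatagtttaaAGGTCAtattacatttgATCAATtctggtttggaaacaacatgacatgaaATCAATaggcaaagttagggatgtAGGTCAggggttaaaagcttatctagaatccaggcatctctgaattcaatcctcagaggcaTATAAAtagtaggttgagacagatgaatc
Sult3a1: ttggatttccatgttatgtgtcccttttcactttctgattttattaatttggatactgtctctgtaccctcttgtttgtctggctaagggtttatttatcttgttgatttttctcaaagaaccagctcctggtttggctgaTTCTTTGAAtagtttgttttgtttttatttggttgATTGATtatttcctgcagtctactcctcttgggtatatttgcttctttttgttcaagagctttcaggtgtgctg
The windows are chr5:87591612-87591861 (minus strand) for Sult1e1, chr7:13623717-13623966 (plus) for Sult2a5, chr7:14123049-14123298 (minus) for Sult2a3, chr7:14438552-14438801 (minus) for Sult2a8, for which a second start site is also listed, and chr10:33857472-33857721 (plus) for Sult3a1. The listed Sult3a1 start lies inside the outer span of the gene. So does the printed Sult2a8 start, in a gene that spans chr7:14410686-14446780.

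Positions are counted from the start site, and no matches overlapped in the printed windows. Promoters were compared in pairs by global alignment with gaps allowed, and identical bases are given as a share of 250. For a gene with a second listed window the highest value was taken. In this alignment 80.0% of bases were identical between Sult2a3 and Sult2a5, which need not lie at the same distance from the start site. Sult2a3 held none of the motifs, and Sult2a5 held TATAAA at -6. Aligned promoters of Sult2a8 and Sult2a5 were identical at 55.2% of bases, the higher value of the listed Sult2a8 windows. This was within the 35.6% to 58.0% seen in 104 pairs of promoters from different Sult subfamilies. The printed Sult2a8 window held AGGTCA at -164 and -90, ATTGAT at -147 and -114, and TATAAA at -29. The window of its second start site, chr7:14446588-14446837, held TATAAA at -223 and none of the other motifs. Sult1e1 held AGGTCA at -113, and Sult3a1 held TTCNNNGAA at -109 and ATTGAT at -74. Such short motifs are common among the 32851 windows of this length in the table, with AGGTCA in 14.0%, TATAAA in 12.4%, TTCNNNGAA in 7.02% and ATTGAT in 6.72% of all windows. A match is a description of letters and not evidence of a bound site.

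**Figure D1:**
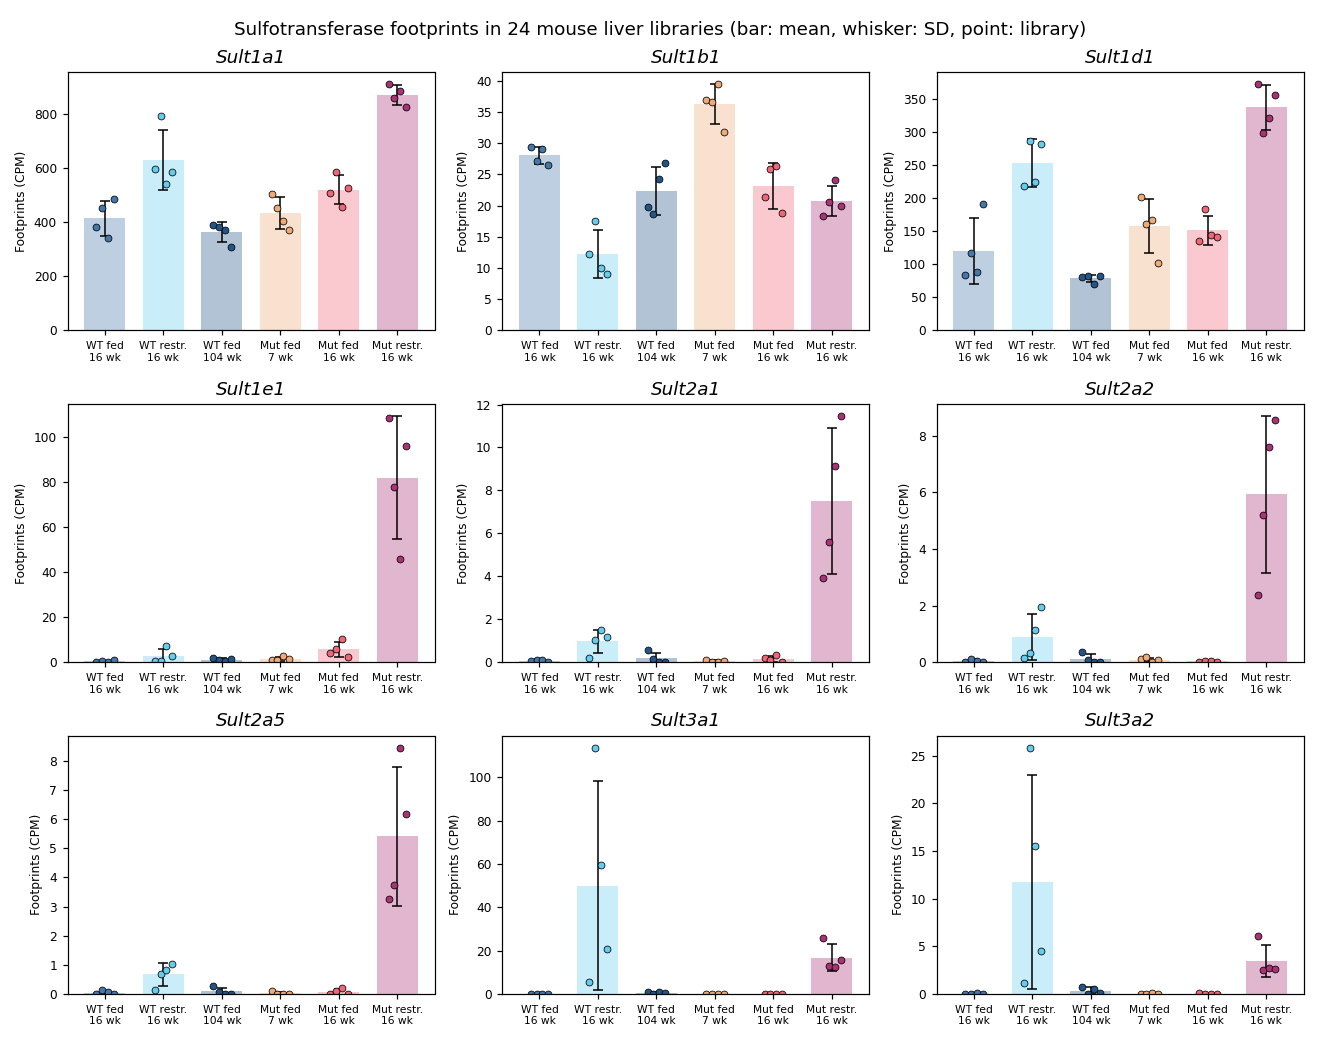
Footprints in CPM on the 9 sulfotransferase genes in 24 mouse liver libraries, by group (WT, wild type; Mut, Ercc1 mutant; restr., 30% dietary restriction; wk, weeks), with bars for the mean, whiskers for the SD of 4 libraries and points for single libraries. Sult1a1 and Sult1d1 are present in every group and highest in restricted mutants, while the Sult2a and Sult3a members are near 0 in fed groups.

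Dietary restriction in wild-type mice was compared with ad libitum feeding at 16 weeks to describe how a normal liver answers less food. Footprints rose on 8 members and fell on Sult1b1. The rises ran from 1.52-fold on Sult1a1 to 468.7-fold on Sult3a1, which like Sult3a2 had few counts in fed livers. All 9 passed the test, against 12.1% of all genes tested, with 8 higher against 5.44% and 1 lower against 6.71%. Among the 4 members that also pass the filter in fed libraries alone, 3 rose and 1 fell. Libraries did not overlap for 7 members that were higher, against 6.35% of all genes, and for 1 that was lower, against 8.25%. Of the 7 only Sult1a1 and Sult1d1 pass the filter in fed libraries alone, so this count is also partly set by the filter. Sult1e1 was called although its libraries overlapped.

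Sult3a1, an amine sulfotransferase, had 3, 0, 5 and 0 counts in the 4 fed wild-type libraries, replicates 1 to 4. In restricted wild types it had 168, 2097, 1348 and 345 counts, which is 5.50, 113.5, 59.6 and 20.9 CPM. Every restricted library stood above every fed library, with a wide spread among the restricted ones, in which replicate 2 was highest and replicate 1 lowest. The log2 change was 8.87 ± 1.00 (468.7-fold, adjusted p = 6.82e-06). It was 8.08 without restricted replicate 2 and 9.66 without fed replicate 3.

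Its neighbour Sult3a2 had 0, 0, 2 and 0 counts in fed wild types and 36, 477, 352 and 74 in restricted wild types. The order of the restricted libraries was the same as for Sult3a1. Summed and scaled by library size, the restricted libraries had 420 times the counts of the fed ones, with a 95% counting interval from 116 to 3480 (log2 change 8.53 ± 1.10, adjusted p = 2.17e-05). The fitted change was 7.80 without restricted replicate 2 and 10.77 without fed replicate 3. Over all 24 libraries, log2 levels of Sult3a1 and Sult3a2 had a Pearson correlation of 0.988. How reads that fit both paralogs were counted is not given in the sources used here, so the division between these genes is uncertain. With their counts summed the change was 8.88.

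The 3 hydroxysteroid sulfotransferases of the Sult2a cluster moved the same way at a lower level. Sult2a1 had 1, 2, 3 and 0 counts in fed wild types and 6, 19, 34 and 19 in restricted wild types, and Sult2a5 had 0, 2, 2 and 0 against 4, 13, 19 and 17. Sult2a2 had 0, 2, 1 and 0 counts against 5, 6, 26 and 32. For each of the 3 genes the restricted libraries were above the fed ones, and restricted replicate 1 was lowest. The log2 changes were 3.54 ± 0.85 for Sult2a1 (adjusted p = 0.00733) and 3.52 ± 0.89 for Sult2a5 (adjusted p = 0.00996). For Sult2a2, with 3 counts in all fed libraries together, the ratio of summed counts was 20.6, with a counting interval from 6.76 to 102 (adjusted p = 0.00454). Without fed replicate 2 the fitted change of Sult2a2 went from 4.27 to 5.30 and that of Sult2a5 to 4.14, and without restricted replicate 4 that of Sult2a2 was 3.62. The 3 genes are close paralogs, and with their counts summed the change was 3.86 (adjusted p = 0.00812).

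Sult1a1, the main phenol sulfotransferase of liver, had 380.1, 450.1, 342 and 484.7 CPM in fed wild types and 595.6, 791.3, 540.9 and 585.2 CPM in restricted wild types. Sult1d1, a sulfotransferase of catecholamines and other phenols, had 83.3, 117.3, 88.6 and 191.8 CPM against 219, 287.5, 224.7 and 281.9 CPM. Neither gene had overlapping libraries, although fed replicate 4 stood above the other fed libraries in Sult1d1. Both rose, by 0.60 ± 0.14 for Sult1a1 (adjusted p = 0.00461) and 1.08 ± 0.21 for Sult1d1 (adjusted p = 0.00105). In a fit of the 8 compared libraries alone Sult1a1 kept its change, at 0.61, and lost the call (adjusted p = 0.0691).

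Sult1b1, which sulfonates thyroid hormones and small phenols, went the other way. It had 29.4, 27.1, 29.1 and 26.6 CPM in fed wild types and 12.3, 17.6, 9.94 and 8.97 CPM in restricted wild types. All 4 restricted libraries were below the fed ones. The log2 change was -1.20 ± 0.17 (2.30-fold lower, adjusted p = 2.73e-05), and it kept its call and its sign under all 15 alternatives tried.

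Sult1e1, the estrogen sulfotransferase, was close to the limit of counting in fed wild types, with 2, 9, 3 and 10 counts. Restricted wild types had 21, 8, 164 and 43 counts, so replicate 3 stood far above the others, and in CPM replicates 1 and 2 lay among the fed livers. The log2 change was 3.07 ± 0.89 (adjusted p = 0.0294). Without restricted replicate 3 it was 1.88 (adjusted p = 0.141). The call was also lost without restricted replicate 4 (adjusted p = 0.0575), without fed replicate 1 (adjusted p = 0.102) or replicate 3 (adjusted p = 0.0986), with the replicate block (adjusted p = 0.0549), without the filter on low counts (adjusted p = 0.0527) and in the compared libraries alone (adjusted p = 0.116).

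Markers of other cell types moved with restriction in wild types. Of 10 stellate cell markers 5 rose and none fell, with a summed level of 311.7 to 479.8 CPM in fed and 462.6 to 936.9 CPM in restricted livers. Of 15 macrophage markers 3 rose (287.3 to 342.5 CPM against 356.8 to 549.7 CPM), of 9 endothelial markers 2 rose (363.6 to 412.9 CPM against 396.4 to 633.1 CPM), and of 3 tested B and plasma cell markers 2 rose (1.40 to 4.23 CPM against 2.62 to 30.8 CPM), with Mzb1 at 0 in the restricted group. Their part in the results on sulfotransferases was not tested. Of the 8 hepatocyte markers 1 rose, and their summed level was 156800 to 168400 CPM in fed and 181500 to 254000 CPM in restricted livers.

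Dietary restriction in Ercc1Δ/− mice was compared with ad libitum feeding of mutants of the same age, 16 weeks, to describe the answer of the progeroid liver. The same 8 genes rose, and Sult1b1 did not pass the test. The rises ran from 1.67-fold on Sult1a1 to 169.3-fold on Sult3a1. The count of 8 of 9 stands beside 11.6% of all genes called, and beside 5.59% called as higher. Of the 4 members that pass the filter in fed libraries alone, 3 rose. All 8 had restricted libraries wholly above the fed ones, against 8.43% of all genes. Only Sult1a1, Sult1d1 and Sult1e1 among them pass the filter in fed libraries alone, so this count is also partly set by the filter.

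Sult1e1 had 61, 114, 186 and 56 counts in fed mutants, or 3.87, 6.01, 10.2 and 2.50 CPM. In restricted mutants it had 2293, 1641, 1341 and 1384 counts, or 108.3, 77.6, 45.6 and 96.1 CPM. No other group of the study came near this level, and the lowest restricted mutant was above every library of the other 5 groups. The log2 change was 3.86 ± 0.64 (14.5-fold, adjusted p = 0.000455), and it stayed called under all 15 alternatives, at 3.61 to 4.32.

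**Figure D2:**
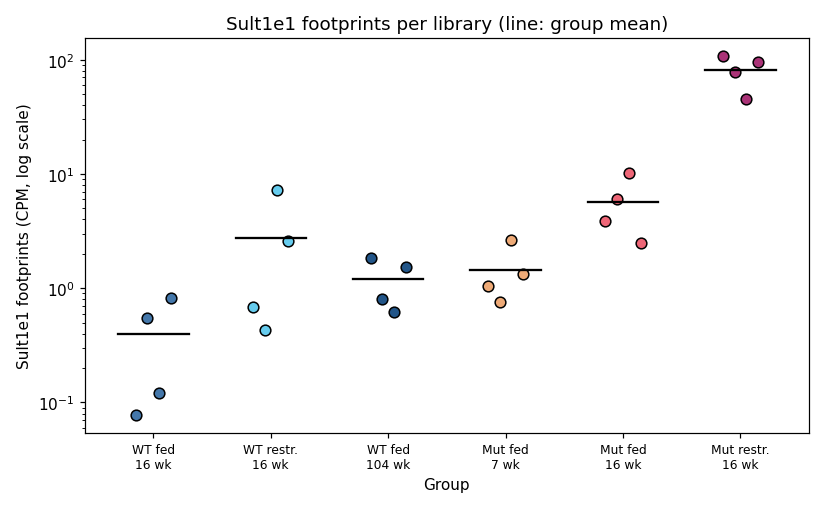
Sult1e1 footprints in CPM on a log scale for each library of the 6 groups (WT, wild type; Mut, Ercc1 mutant; restr., 30% dietary restriction; wk, weeks), with a line at the mean of the 4 libraries. Restricted mutants lie between 45.6 and 108.3 CPM, and fed mutants at 16 weeks lie above all fed wild types of that age.

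The Sult2a members also reached their highest levels in restricted mutants. Sult2a1 had 3, 2, 6 and 0 counts in fed mutants and 83, 118, 268 and 165 in restricted mutants, which is 3.92, 5.58, 9.12 and 11.5 CPM. Sult2a5 had 0, 2, 4 and 0 counts against 69, 79, 248 and 89, and Sult2a2 had 0, 1, 1 and 0 against 50, 110, 224 and 123. There was no overlap between fed and restricted livers in any of the 3. The log2 changes were 5.60 ± 0.72 for Sult2a1 (adjusted p = 8.95e-06) and 5.97 ± 0.75 for Sult2a5 (adjusted p = 5.81e-06). Sult2a2 had 2 counts in all fed mutants together, and its ratio of summed counts was 222, with a counting interval from 61.1 to 1840 (log2 7.48 ± 0.91, adjusted p = 4.43e-06). Without fed mutant replicate 3 the changes of Sult2a1 and Sult2a5 were 6.29 and 7.02. With the 3 genes summed the change was 6.17 (adjusted p = 3.88e-05).

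Sult3a1 had 1, 0, 4 and 2 counts in fed mutants and 551, 275, 368 and 228 in restricted mutants, or 26.0, 13.0, 12.5 and 15.8 CPM. Sult3a2 had 1, 0, 1 and 0 counts against 128, 53, 79 and 38. In both genes restricted replicate 1 was the highest, and the other 3 restricted livers lay close together. Sult3a1 changed by 7.40 ± 1.01 (adjusted p = 5.32e-05), or 8.16 without fed replicate 3. Sult3a2 had a ratio of summed counts of 130, with a counting interval from 35.8 to 1080 (log2 6.71 ± 1.15, adjusted p = 0.000466), and the change of both genes summed was 7.33.

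Sult1a1 had 507.4, 586.2, 455.8 and 526.4 CPM in fed mutants and 908.7, 857.1, 885.3 and 824.2 CPM in restricted mutants. Sult1d1 had 136.1, 184.6, 145.1 and 141.6 CPM against 373.1, 298.6, 322.4 and 357.2 CPM. The restricted libraries of both genes were above all fed ones, and their relative spread was small, with a coefficient of variation of 4.2% for Sult1a1. The changes were 0.74 ± 0.14 (adjusted p = 0.000561) and 1.15 ± 0.21 (adjusted p = 0.000429). Sult1b1 had 21.4, 25.9, 26.4 and 18.8 CPM in fed and 18.3, 20.6, 24.1 and 20.0 CPM in restricted mutants. These ranges overlapped, and the change of -0.16 ± 0.17 did not pass (adjusted p = 0.618), with an interval from -0.50 to 0.19.

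In this comparison none of the 15 macrophage, 10 stellate, 3 B and plasma cell or 3 neutrophil markers tested passed in edgeR's test. Summed macrophage markers were at 561.4 to 745.9 CPM in fed and 593 to 745.3 CPM in restricted mutants, and stellate markers at 510.4 to 680.1 and 596.2 to 836.7 CPM. Of 9 endothelial markers 2 rose, with summed levels of 355.6 to 446 CPM and 378.5 to 438.8 CPM, and of 5 tested cholangiocyte markers 1 rose, with 17.9 to 25.7 CPM and 14.7 to 62.0 CPM. Of the 8 hepatocyte markers 1 rose and 2 fell.

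**Figure D3:**
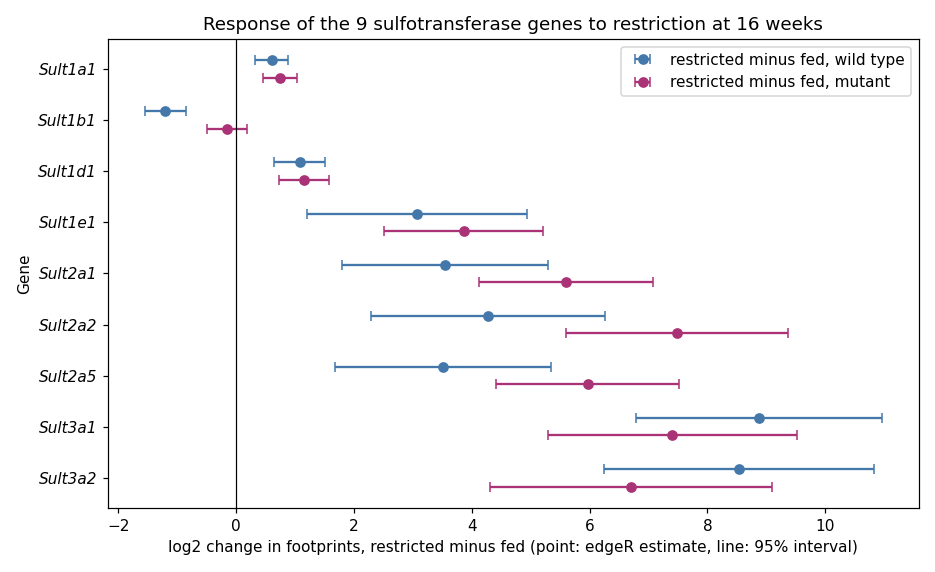
Log2 change in footprints under restriction at 16 weeks for the 9 sulfotransferase genes, restricted minus fed, in wild types and in Ercc1 mutants, as edgeR's estimate (point) with its 95% interval (line). Sult1b1 lies at -1.20 in wild types and at -0.16 in mutants, and the other 8 genes lie above 0 in both genotypes.

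Restricted mutants were set against restricted wild types to ask whether the genotype matters under the same diet. Sult1a1, Sult1b1, Sult1e1, Sult2a1, Sult2a2 and Sult2a5 were higher in mutants. These are 6 of 9 members, against 18.2% of all genes called and 9.38% called as higher. Of the members that also pass the filter in fed libraries alone, Sult1a1, Sult1b1 and Sult1e1 were higher and Sult1d1 was not called. Sult2a1, Sult2a2 and Sult2a5 reached the cutoff of the filter in 4 restricted mutants and 0 fed livers. In restricted wild types they reached it in only 3, 2 and 3 libraries, so their calls here are partly set by the filter. Sult1e1 differed most, at 4.90 ± 0.68 (29.8-fold, adjusted p = 6.11e-05), or 6.10 without restricted wild-type replicate 3. Sult2a1, Sult2a2 and Sult2a5 were higher by 2.98 ± 0.57, 2.77 ± 0.59 and 3.04 ± 0.58 (adjusted p = 0.000699, 0.00181 and 0.000553), and Sult2a2 by 3.44 without restricted wild-type replicate 4. In all 3 Sult2a genes every mutant library was above every wild-type library, but the share of all genes without overlap was not counted here.

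Sult1b1 was higher by 0.77 ± 0.17 (adjusted p = 0.00234, and 0.0649 in the compared libraries alone). Sult1a1 was higher by 0.47 ± 0.14 (adjusted p = 0.0178), a call lost without restricted wild-type replicate 3 (adjusted p = 0.0705), without replicate 4 (adjusted p = 0.056) and in the compared libraries alone (adjusted p = 0.105). Sult1d1 did not pass at 0.42 ± 0.20 (adjusted p = 0.162), although its libraries did not overlap. Sult3a1 and Sult3a2 had lower means in mutants, at -1.56 ± 0.60 (adjusted p = 0.0758) and -1.75 ± 0.62 (adjusted p = 0.0556), and neither passed. Restricted wild-type replicate 1 lay below all mutants and replicate 4 among them in both genes, while replicates 2 and 3 were above. Without replicate 2, the highest, the differences were -0.77 (adjusted p = 0.366) and -1.02 (adjusted p = 0.258). Without replicate 1 both were called lower, at -1.95 (adjusted p = 0.00624) and -2.15 (adjusted p = 0.00443), as they were without replicate 4, at -1.84 (adjusted p = 0.0449) and -2.04 (adjusted p = 0.0314), and Sult3a2 also without restricted mutant replicate 1, at -2.17 (adjusted p = 0.0404).

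Of 15 macrophage markers 6 were higher in restricted mutants than in restricted wild types, with summed levels of 593 to 745.3 CPM against 356.8 to 549.7 CPM, and of 10 stellate markers 4 were, with 596.2 to 836.7 CPM against 462.6 to 936.9 CPM. Of 9 endothelial markers 1 was higher and 2 lower, at 378.5 to 438.8 CPM against 396.4 to 633.1 CPM. Of 3 tested neutrophil markers 1 was higher, at 4.06 to 5.86 CPM against 0.649 to 2.12 CPM, and of 5 cholangiocyte markers 1 was, at 14.7 to 62.0 CPM against 13.8 to 24.2 CPM. Of the 8 hepatocyte markers 1 was higher and 3 were lower, with a list median of -0.45 against -0.01 over all genes and summed levels of 163400 to 209500 CPM against 181500 to 254000 CPM. Their part in the differences of sulfotransferases was not tested.

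The difference between the 2 restriction responses was tested itself, with the wild-type value subtracted from that of the mutants. Only Sult1b1 passed, at 1.05 ± 0.24 (adjusted p = 0.0308), against 0.803% of all genes called. Restriction lowered it in wild types, and in mutants the fall of the mean was 1.11-fold and not called. The call was lost in 11 of 23 alternatives, with adjusted p up to 0.0897, among them the fits without fed wild-type replicate 1, 2 or 3, restricted wild-type replicate 3 or 4, fed mutant replicate 1 or 4, and restricted mutant replicate 2 or 3, while the difference stayed between 0.90 and 1.27. For Sult1e1 the difference was 0.79 ± 1.22 (adjusted p = 0.851), with an interval from -1.75 to 3.34. For Sult2a1, Sult2a2 and Sult2a5 it was 2.06 ± 1.40, 3.21 ± 2.01 and 2.45 ± 1.57 (adjusted p = 0.584, 0.545 and 0.556). None of these passed, which does not show that the responses are alike, and the fed wild-type and fed mutant libraries held at most 6 counts of any Sult2a member.

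Fed mutants and fed wild types of 16 weeks were compared to ask how the genotypes differ without restriction. Sult1e1 was the only member that passed, against 10.7% of all genes. It had 0.0783, 0.551, 0.120 and 0.828 CPM in wild types and 3.87, 6.01, 10.2 and 2.50 CPM in mutants. All mutant libraries were above all wild-type libraries, and the change was 4.10 ± 0.86 (17.2-fold, adjusted p = 0.00411), called under all 15 alternatives at 3.67 to 4.66. Sult1a1 was at 0.33 ± 0.14 (adjusted p = 0.135) and Sult1d1 at 0.34 ± 0.21 (adjusted p = 0.329), both with overlapping libraries. Sult1d1 was called without fed wild-type replicate 4, at 0.66 (adjusted p = 0.0261), and Sult1a1 with library size alone as the scale, at 0.45 (adjusted p = 0.0472). Sult1b1 was lower in every mutant library, with a change of -0.28 ± 0.17 that did not pass (adjusted p = 0.322). The Sult2a and Sult3a members had at most 6 counts in any of these 8 libraries, so no fold is given.

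Macrophage markers differed between the same groups. Of 15 such genes 13 were higher in mutants, with a summed level of 561.4 to 745.9 CPM against 287.3 to 342.5 CPM, and 4 of 10 stellate markers (510.4 to 680.1 against 311.7 to 479.8 CPM), 2 of 3 tested neutrophil markers (1.97 to 6.88 against 0.497 to 0.880 CPM) and 1 of 3 tested B and plasma cell markers (5.14 to 14.1 against 1.40 to 4.23 CPM) were higher as well. T and NK cell markers were too low to test, with Klrb1c at 0 in the wild types. Their part in the Sult1e1 result was not tested. Of the 8 hepatocyte markers 1 was higher and 2 were lower.

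Old wild types of 104 weeks were compared with fed wild types of 16 weeks to describe natural ageing. No member passed in edgeR's test, against 9.34% of all genes. An unadjusted p under 0.05 was seen for 2, and DESeq2 called 1. The share of all genes was not counted for either rule, so these counts show nothing particular to the members. Sult1d1 had 81.2, 81.8, 70.4 and 81.7 CPM in old livers, all below the young livers at 83.3 to 191.8 CPM, and a change of -0.61 ± 0.21 (adjusted p = 0.0626). It was called by DESeq2 (adjusted p = 0.0471) and without young replicate 1 (-0.75, adjusted p = 0.029) or replicate 3 (-0.73, adjusted p = 0.0391). Sult3a1 had 13, 0, 15 and 6 counts in old livers and 3, 0, 5 and 0 in young ones, which overlap (2.51 ± 1.40, adjusted p = 0.296). Sult3a2 had 11, 0, 7 and 2 counts against 0, 0, 2 and 0, a ratio of summed counts of 13.9 with a counting interval from 3.38 to 123 (adjusted p = 0.179). Sult1e1 was at 1.88 ± 1.01 (adjusted p = 0.278), Sult1a1 at -0.19 ± 0.14 (adjusted p = 0.427) and Sult1b1 at -0.33 ± 0.17 (adjusted p = 0.247).

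Cell type markers differed between old and young livers. Of 15 macrophage markers 10 were higher in old livers (453.3 to 590.6 against 287.3 to 342.5 CPM), as were 3 of 3 tested B and plasma cell markers (34.9 to 83.2 against 1.40 to 4.23 CPM) and 2 of 3 tested neutrophil markers (4.21 to 9.97 against 0.497 to 0.880 CPM). Of 10 stellate markers 1 was higher (420.2 to 571.8 against 311.7 to 479.8 CPM), and of 5 tested cholangiocyte markers 1 was (15.7 to 58.1 against 14.8 to 18.2 CPM). Of the 8 hepatocyte markers 2 were higher and 1 lower, and of the T and NK cell markers Cd3d and Klrb1c were at 0 in old livers. Their part in the Sult1d1 values was not tested.

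Mutants of 16 weeks were compared with mutants of 7 weeks to follow the mutant liver in time. Wild types of 7 weeks were not analysed, so a progeroid change and a change with normal age cannot be told apart here. No member passed in edgeR's test, where only 0.434% of all genes did. An unadjusted p under 0.05 was seen for 2, and DESeq2 called 1, again without a share of all genes to set beside these counts. Sult1b1 had 37.0, 36.7, 39.5 and 31.9 CPM at 7 weeks and 18.8 to 26.4 CPM at 16 weeks, with no overlap and a change of -0.65 ± 0.17 (adjusted p = 0.0752). DESeq2 called it (adjusted p = 0.0215), as did a fit of the compared libraries alone (adjusted p = 0.00913). Sult1e1 had 1.05, 0.765, 2.65 and 1.34 CPM at 7 weeks, with the highest of them above the lowest liver of 16 weeks, and a change of 1.97 ± 0.70 (adjusted p = 0.319). Of 15 macrophage markers 2 were higher at 16 weeks (561.4 to 745.9 against 341.2 to 513.7 CPM), as was 1 of 3 tested neutrophil markers (1.97 to 6.88 against 0.652 to 1.20 CPM), and their part in these values was not tested.

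Placed in order of their group means, Sult1a1 and Sult1d1 were highest in restricted mutants and then in restricted wild types, and lowest in old wild types. The top group of Sult1a1 was separated from the next by its libraries, and the following 5 groups each overlapped with their neighbour. For Sult1d1 restricted mutants, restricted wild types and the rest were separated in turn, and old wild types lay below all others. Sult1b1 had its highest levels in mutants of 7 weeks, at 36.3 ± 3.19 CPM (SD, n = 4), and its lowest in restricted wild types, at 12.2 ± 3.85 CPM, each separated from its neighbour. Sult1e1 and the Sult2a members had restricted mutants alone at the top, and Sult3a1 and Sult3a2 had restricted wild types first (49.9 ± 48.1 and 11.8 ± 11.2 CPM) and restricted mutants second (16.9 ± 6.29 and 3.47 ± 1.72 CPM), with overlap between these groups.

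Other genes of the Sult2a cluster did not all move with the members. Sult2a3 and Sult2a4, next to Sult2a1, were higher in restricted than in fed mutants, by 5.72 ± 0.80 (adjusted p = 2.12e-05) and 4.53 ± 0.68 (adjusted p = 5.27e-05), or 6.67 and 5.19 without fed mutant replicate 3. Sult2a3 had 3 counts in all fed mutants, and its ratio of summed counts was 61.9, with a counting interval from 20.9 to 302. Sult2a3 and Sult2a4 would also have failed the filter in the fed libraries alone. Their calls as higher under restriction are therefore partly set by the filter. In wild types Sult2a3 was called higher (adjusted p = 0.0191), but not without fed replicate 1 (adjusted p = 0.0768) or restricted replicate 3 (adjusted p = 0.0562), and its fitted change went from 3.22 to 4.02 without fed replicate 3, and Sult2a4 was not called (1.46 ± 0.70, adjusted p = 0.185). Sult2a6 was not called in either response (adjusted p = 0.96 and 0.0597).

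Sult2a8, which is known to act on bile acids, had 216.2, 208.6, 252.5 and 247.9 CPM in fed wild types and 8.57, 85.2, 32.2 and 15.3 CPM in restricted wild types. In mutants it had 202.3, 227, 197.5 and 170.6 CPM fed and 22.3, 27.4, 20.1 and 14.1 CPM restricted. It fell in both, without overlap of libraries, by 2.71 ± 0.45 (adjusted p = 0.000504) and 3.25 ± 0.46 (adjusted p = 7.97e-05) on the log2 scale. Without restricted wild-type replicate 2, which had the most Sult2a8 of its group and also the most Sult3a1, the wild-type change was -3.63, and in the compared libraries alone it was not called (adjusted p = 0.0613). Sult2a7, at the far end of the cluster, was higher in fed mutants than in fed wild types (2.73 ± 0.49, adjusted p = 0.000507), at 3.44 to 5.48 CPM against 0.560 to 0.919 CPM. Restriction lowered it in mutants by 2.57 ± 0.48 (adjusted p = 0.000652), and in wild types it was at -0.17 ± 0.53 (adjusted p = 0.878). The test of the difference between these Sult2a7 responses did not pass (-2.40 ± 0.71, adjusted p = 0.113).

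**Figure D4:**
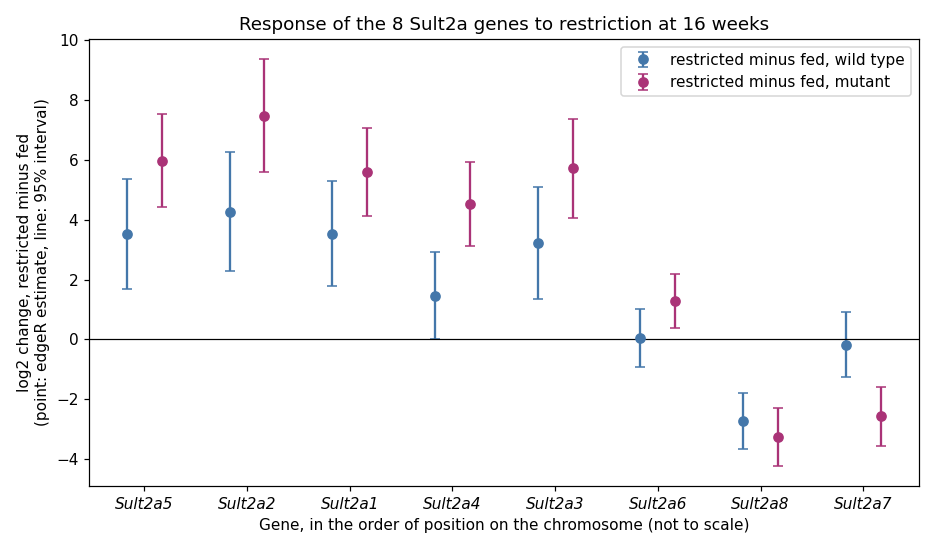
Log2 change in footprints under restriction at 16 weeks for the 8 genes of the Sult2a cluster in chromosomal order, restricted minus fed, as edgeR's estimate (point) with its 95% interval (line), in wild types and in Ercc1 mutants. Sult2a5 to Sult2a3 lie above 0 in both genotypes and Sult2a8 lies below 0 in both, at -2.71 and -3.25. Sult2a5 to Sult2a3 would have failed the filter on low counts in fed libraries alone.

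Supply of sulfate and of the donor PAPS was followed in 14 tested genes. In restricted wild types 1 rose and 2 fell, with a list median of -0.20 against 0.02 over all genes, and in restricted mutants 3 rose and 2 fell, with a median of -0.19 against 0.00 over all genes. Cdo1, which oxidises cysteine on the path to sulfate, rose in mutants by 0.98 ± 0.20 (adjusted p = 0.00171), and Bpnt2, a phosphatase that clears the spent donor, by 0.83 ± 0.16 (adjusted p = 0.00111). Bpnt1, another phosphatase of the spent donor, fell in mutants by 0.47 ± 0.12 (adjusted p = 0.0126), a call lost without fed replicate 2 (adjusted p = 0.0543) or restricted replicate 2 (adjusted p = 0.05). Papss1, which makes PAPS and is named here after its values were seen, fell in mutants by 0.65 ± 0.20 (adjusted p = 0.0304), a call lost with library size alone and without fed replicate 2 or 3 or restricted replicate 1, 2 or 4 (adjusted p = 0.0605 to 0.108). Suox, the sulfite oxidase, fell in wild types by 0.63 ± 0.16 (adjusted p = 0.00965), a call lost without restricted replicate 4 (adjusted p = 0.0642) and with library size alone as the scale (adjusted p = 0.0626). Papss2, which also makes PAPS, was higher in restricted mutants than in restricted wild types by 0.70 ± 0.19 (adjusted p = 0.0109, and 0.0839 in the compared libraries alone), 1 of 2 genes of the list that were higher there. None of the 14 passed in the 3 comparisons of fed mice.

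Among 18 regulators of sulfotransferase genes, Cux2, a female-biased liver factor, rose under restriction in both genotypes. It had 0.240 to 0.828 CPM in fed and 0.849 to 7.82 CPM in restricted wild types (2.84 ± 0.65, adjusted p = 0.00621), and 0.0527 to 1.03 CPM in fed and 8.71 to 19.0 CPM in restricted mutants (5.01 ± 0.70, adjusted p = 4.53e-05, or 6.84 without fed mutant replicate 4). Ghr, the growth hormone receptor, fell under restriction by 0.88 ± 0.17 in wild types (adjusted p = 0.000809) and 1.08 ± 0.17 in mutants (adjusted p = 6.77e-05). Over the list 1 rose and 4 fell in restricted wild types (median -0.16 against 0.02 over all genes), and 1 rose and 1 fell in restricted mutants (median -0.09 against 0.00). Of all genes 12.1% and 11.6% were called there. Between restricted mutants and restricted wild types 0 were higher and 6 lower in mutants, against 18.2% of all genes called. In fed mutants against fed wild types 0 were higher and 3 lower (10.7% of all genes called). In old against young wild types 0 were higher and 2 lower (9.34%).

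Other genes that differ between the sexes moved in these male livers too. Of 19 female-biased genes, none of them a member, 8 rose and 1 fell in restricted wild types (median 0.89 against 0.02 over all genes), and 14 rose and 1 fell in restricted mutants (median 2.27 against 0.00). Of 17 male-biased genes 15 fell in restricted wild types (median -2.66) and 17 in restricted mutants (median -2.72). Between restricted mutants and restricted wild types the female-biased genes were split, with 4 higher and 7 lower in mutants (median -0.001 against -0.006 over all genes). Of the male-biased genes 4 were higher and 3 lower there. In the test of the difference between responses 6 female-biased genes passed as higher and 0 as lower (median 1.76 against -0.02 over all genes). In fed mutants against fed wild types 12 of the female-biased genes fell and 1 rose (median -1.37 against 0.01), and in old against young wild types 9 fell and 1 rose (median -1.61 against 0.01). The members known as female-biased had too few counts in those fed groups for a fall to be measured.

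For each member, the genes with the most similar pattern were sought among 7369 genes with a mean of at least 5 CPM, by Pearson correlation of log2 CPM over the same 24 libraries. Sult1e1 was most like Ldhb (0.936), Ctsl (0.924) and Slc25a15 (0.893). Sult1a1 and Sult1d1 both had Hpd first (0.923 and 0.907), and their correlation with each other was 0.923. Sult1b1 was most like Hoga1 (0.931), Shmt2 (0.912) and Acsm5 (0.899). The Sult2a members shared Slco1a4 and Atp1b1 among their nearest, at 0.881 to 0.906, and Sult3a1 and Sult3a2 shared Slc22a26 (0.905 and 0.892) and Cyp39a1 (0.898 and 0.875). These libraries share 6 group means and their depth, so the values describe the pattern over groups.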

How the data were processed

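Ribosome footprints were measured in 24 livers. The authors deposited whole-number counts per gene for each library, and these counts were used as deposited. The submitters' processing notes name Trimmomatic 0.39, cutadapt 3.4, Bowtie2 2.4.2, STAR 2.7.0f and 2.7.8a, featureCounts, Subread 1.6.4 and build GRCm38.p6. Settings, use of strand and what was done with reads matching more than 1 gene are not stated in the sources used here, so close paralogs are uncertain when taken singly.

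Genes were filtered with filterByExpr, scaled by TMM and fitted over all 6 groups with edgeR 4.0.16 (quasi-likelihood test, 18 residual degrees of freedom, biological coefficient of variation 24.2%) in R 4.3.3, with limma 3.58.1 and, as an alternative, DESeq2 1.42.0. CPM use effective library sizes, and log2 CPM add a prior count of 2. A count of 3 was taken as the floor. Ratios of summed counts carry exact 95% intervals that cover counting error only. Comparisons that share a group share its libraries. The fit was tested on simulated data.

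The named genes are all 9 members, some of the other Sult, sulfate supply and regulator genes called in a comparison, and genes most like each member by correlation of log2 CPM. The rule allowed up to the 4 smallest adjusted p per list and comparison, and not every gene it allowed is described above. Among those left out, Sult5a1 fell under restriction in wild types (-2.39, adjusted p = 8.96e-05) and in mutants (-1.765, adjusted p = 0.00492). Slc13a4 fell in wild types (-3.11, adjusted p = 0.00376). Ethe1 was called higher in both (adjusted p = 0.0268 and 0.0165), calls lost in several alternatives. Members and lists were chosen with earlier results of these data known. Of the list symbols 3, Impad1, Sqrdl and Sts, were not matched, so no values are given under these symbols. The values of 1 listed regulator are not reported here. Promoters come from a RefSeq table (GRCm38.p6), motifs were counted with Python, and promoters were aligned in pairs with Biopython 1.88. A deposited table of open reading frames names transcripts without genes and was not used here. Alternatives were RLE factors, library size alone, no filter, the replicate number as a block, the compared libraries alone, summed paralogs, DESeq2, and leaving out each library.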

Additional observations from a re-analysis of the deposited data

Results flagged for a closer look

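Among old wild types, replicate 3 was low in Sult1d1, at 70.4 CPM, while the other 3 libraries lay between 81.2 and 81.8 CPM. Among restricted mutants, replicate 1 was high in Sult3a2, at 6.05 CPM, while the others lay between 2.50 and 2.69 CPM. These were 2 outlying libraries in 43 groups of 4 checked, and chance gives about 1 in 20 groups. The restriction response of Sult1b1 differed between genotypes by 1.05 on the log2 scale, mutant minus wild type, in edgeR's test of the difference (adjusted p = 0.0308).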

How the results depend on the processing

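Of 50 results on single members 25 passed the test, and 20 of these kept their call and direction under every alternative run. Of the 380 alternatives of called results 357 kept the call, 23 lost it and 0 reversed. The fit of summed paralogs is counted once for each paralog. Sult2a1, Sult2a2 and Sult2a5 in restricted against fed wild types had 14 alternatives, since they were not tested in the compared libraries alone. The number of members called went from 1 to 2 in fed mutants against fed wild types with library size alone, from 0 to 1 in old against young wild types by DESeq2, and from 0 to 1 in mutants of 16 against 7 weeks by DESeq2 and in the compared libraries alone, where 4 members were tested. For restricted against fed wild types it went from 9 to 4 in the compared libraries alone, where 6 members were tested. For the difference between restriction responses it went from 1 to 0 with library size alone and in the compared libraries alone. Leaving out each library gave 1 to 2 members called in fed mutants against wild types, 0 to 1 in old against young wild types, 0 in mutants of 16 against 7 weeks, 8 to 9 and 8 in the restriction responses of wild types and mutants, 5 to 8 between restricted genotypes, and 0 to 1 in the difference of responses.

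Sult1d1, not called in either case, changed sign in mutants of 16 against 7 weeks, at 0.063 with library size alone and at -0.22 to 0.082 when single libraries were left out, the highest without replicate 1 of 7 weeks. It did so too in the difference of responses, at -0.242 to 0.216 when single libraries were left out, with -0.008 without restricted wild-type replicate 3 and -0.242 without fed wild-type replicate 4. The cause was not tested. Same-numbered libraries deviated with a correlation of -0.19 to 0.25, and no comparison had all 4 pairs over 0.1, so the numbers were not taken as pairs. As a hint from the data, 3 of 4 pairs were over 0.1 in old against young wild types, and 6 of 8 libraries were closest to their own number there and in restricted against fed wild types. With the replicate block Sult1e1 in restricted wild types was at 2.85 (adjusted p = 0.0549), 8 members were called there, and no other member call changed. Depth limits the Sult2a and Sult3a members in fed livers, where 3 counts correspond to 0.1175 to 0.248 CPM.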
